A study of Mus musculus with 65 samples.

Results

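The comparison described here sets 19 transplanted cells, progenitors of embryonic day 15 (E15) placed into the brain of an E12 host, against 20 E12 progenitors of the host's own stage. All cells that the labels put in these groups were taken, 39 of the 65 cells of the study. The remaining 26 cells are E15 progenitors that were not transplanted, and their levels stand beside the others for orientation. Patch-seq was used, in which the content of 1 cell is drawn into a glass pipette and its messenger RNA is turned into 1 library. All cells came from CD1 embryos. The E12 and E15 cells carry the condition WT, and the transplanted cells the condition Transplanted, at E15 in an E12 environment. FlashTag, a fluorescent dye delivered to the ventricle, labelled the E12 and E15 cells. The labels do not state how the transplanted cells were marked, how long they stayed in the host, or from which embryos and litters cells came.

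Apical progenitors are the radial glia that line the ventricle of the embryonic cortex, divide at its surface and give rise, directly or through intermediate progenitors, to neurons and later to glia. With age their output moves from deep-layer to upper-layer neurons. Notch, Wnt, Hedgehog, BMP and FGF signals between these cells and their surroundings keep them dividing or let them differentiate. Placing older progenitors next to younger ones asks which features follow the age of the cell and which follow its surroundings.

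Values are reads per 1000000 reads of a group or cell (CPM). They come from reads recovered from the deposited log10 values, added over the cells of a group. Since the labels name no animal, each group counts as 1 sample. There is therefore no test, p-value or standard error, and the spread between embryos is unknown. Bounds in parentheses after a CPM or a ratio are exact 95% limits that cover counting error of reads alone. Amplified reads that carry no molecular identifier can repeat 1 molecule. The limits can therefore be too narrow for molecules, and they leave out the spread between cells. A log2 ratio is that of transplanted over E12 cells after adding 1 CPM to each. A gene was called higher or lower where it had 5 CPM in either group and differed at least 2-fold in 1 direction on 3 scales, with the deposited log10 values moving the same way. Values on the deposited scale are log10 differences of 1 plus reads per 100000. There 0.3 is about 2-fold for levels far above 1 read per 100000 and more than 2-fold for levels near or below it. The 3 scales were summed CPM, mean CPM per cell, and summed CPM without libraries above 8000 genes.

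Libraries differed widely in depth. The 20 E12 cells held 10928 to 1635767 reads (median 148824) and the 19 transplanted cells 22358 to 3622411 (median 166134). Sums were 4942302 and 12716263 reads. Above 8000 genes were detected in 5 transplanted libraries (replicates 4, 6, 14, 15 and 17) and in 0 E12 libraries, and these 5 held 8076393 reads. They are called many-gene libraries below, and values without them rest on 14 transplanted cells, among which replicate 19 held 55.7% of the reads. Ratios and levels given over the 14 cells are of this kind. In the E15 group 11 of 26 libraries were above 8000 genes and held 26454861 of 37479005 reads, so an E15 level is followed in parentheses by the level in the other 15 cells. Thinned to 25000 reads, which 17 transplanted and 18 E12 cells had, the median cell showed 4049 genes in the transplanted group, 2842.5 without its many-gene libraries, and 2804 at E12. Cells of both groups occurred in 7 of the 8 library pools that the labels name without defining.

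The labelled cell type was checked on 24 genes of apical progenitors. Their summed level per cell was 2802 at the lowest, 8028 at the median and 23974 CPM at the highest in transplanted cells, and 2375, 12076 and 20036 CPM in E12 cells. No cell was at 0, and the ranges overlapped over most of their length. A sum of 24 genes above 0 does not settle the type of a cell. The 5 many-gene libraries sat at the low end, with a median of 4185 CPM against 9776 CPM in the other 14 transplanted cells. For 21 neuron genes the order was the reverse, with a median cell at 10440.2 CPM in the many-gene libraries, 2745 CPM in the other transplanted cells and 1436 CPM at E12. The neuron sum lay above the progenitor sum in each many-gene library and in transplanted replicates 11 (6586 against 5010 CPM) and 18 (6240 against 5093 CPM). It also did so in E12 replicates 11 (9875 against 2375 CPM) and 19 (7498 against 5848 CPM). Sox2, a factor of neural progenitors, was read in 17 of 19 transplanted and 19 of 20 E12 cells. Whether the low progenitor and high neuron sums of the many-gene libraries play a part in the differences below was not tested. Values without them stand beside each list, and beside each gene whose ratio they move by more than 1.5-fold.

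**Figure D1:**
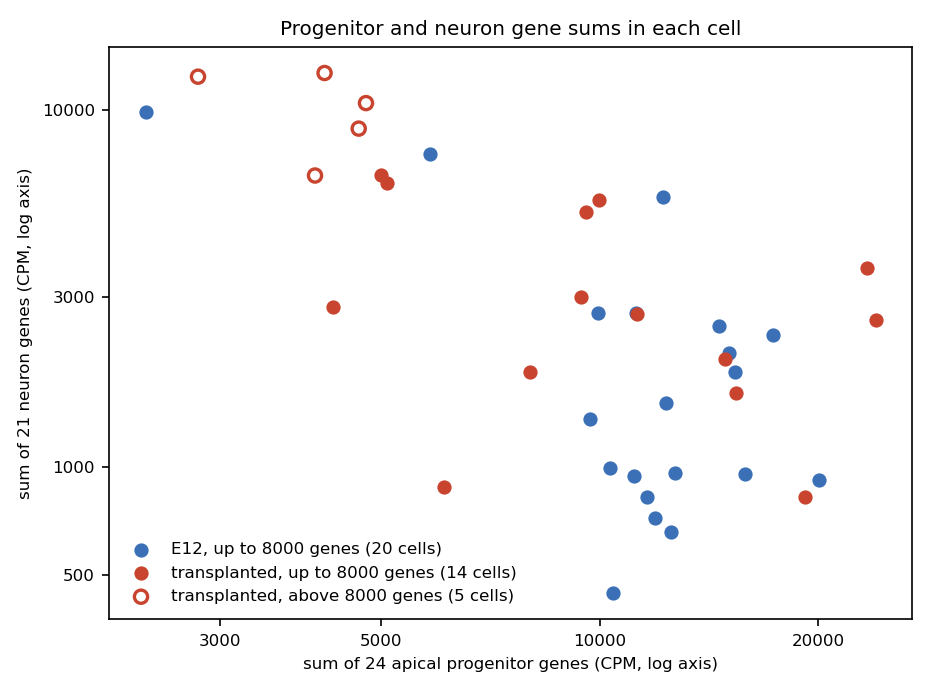
Each point is 1 cell, placed by its summed level of 24 apical progenitor genes (horizontal, CPM, log axis) and of 21 neuron genes (vertical, CPM, log axis). Blue points are E12 cells, filled red points transplanted cells with up to 8000 genes, and open red points the 5 transplanted many-gene libraries, which lie at the upper left with neuron sums of 6545 to 12674 CPM.

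Across the transcriptome, 2176 of 9931 measured genes were called (21.9%), 957 higher (9.64%) and 1219 lower (12.3%) in transplanted cells. Of the genes called higher 942 kept their direction whichever single cell was left out, and 1034 of those called lower did. At least 2-fold in every such subset remained 778 and 637 genes. Detection was uneven: 162 genes called higher had no E12 read, and 1 gene called lower had no transplanted read. In the group where they were higher, 19 genes called higher and 254 called lower were read in 1 to 3 cells. The median log2 ratio over all measured genes was -0.09, with 47.2% of genes above 0, and it was -0.16 with many-gene libraries left out, with 45.3% above 0. On the deposited log10 values, from which the authors had taken out 2 directions over cells, 43.6% of differences were above 0. There 160 genes (1.61%) were at least 0.3 higher and 198 (1.99%) at least 0.3 lower. Before the 2 directions were taken out 68.4% of differences were above 0, and 916 genes were at least 0.3 higher against 155 lower. The limit of 0.3 is stricter than 2-fold for genes of low level, so these counts are not set against those of the called genes. On summed CPM alone, 22.9% of genes were at least 2-fold higher and 24.7% at least 2-fold lower. The balance turned when log2 ratios were taken within each pool and averaged over pools: 4423 genes were then at least 2-fold higher and 807 lower, and the median over all measured genes was 0.80, so that within-pool values are to be read against that shift.

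Lists of related genes differed unevenly against that background. On summed CPM, lists of apical progenitor, Notch, Hedgehog and BMP, early temporal, S phase, cholesterol, stress response and adhesion genes lay lower in transplanted cells. Lists of neuron genes and of markers of ventral telencephalon, microglia and red blood cells lay higher on that scale. On the deposited scale neuron, ventral telencephalon and microglia genes had medians of -0.017, -0.086 and -0.091, and red blood cell genes 0.42. Cholesterol and adhesion genes had 0.010 and 0.012 there, and the other lists named as lower stayed below 0. The S phase median was -0.07 with many-gene libraries left out. Lists of ribosomal proteins, the mitochondrial genome, histones, splicing factors and FGF signalling had medians within 0.5 of 0. Every cell carries its own pair of an IL number and a pool, which the labels do not define. IL numbers ran from 1 to 7 at E12 and from 5 to 12 in transplanted cells, so most of this difference cannot be told apart from the groups. Among the 7 transplanted and 7 E12 cells with IL numbers 5 to 7, the medians were -1.11 for apical progenitor, -1.06 for Notch, -1.31 for Hedgehog and BMP, -1.08 for early temporal and 1.16 for neuron genes. As means of log2 ratios within the 7 shared pools they were -1.25, -0.33, -0.41, -0.62 and 1.99, on a scale where the median of all genes was 0.80.

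**Figure D2:**
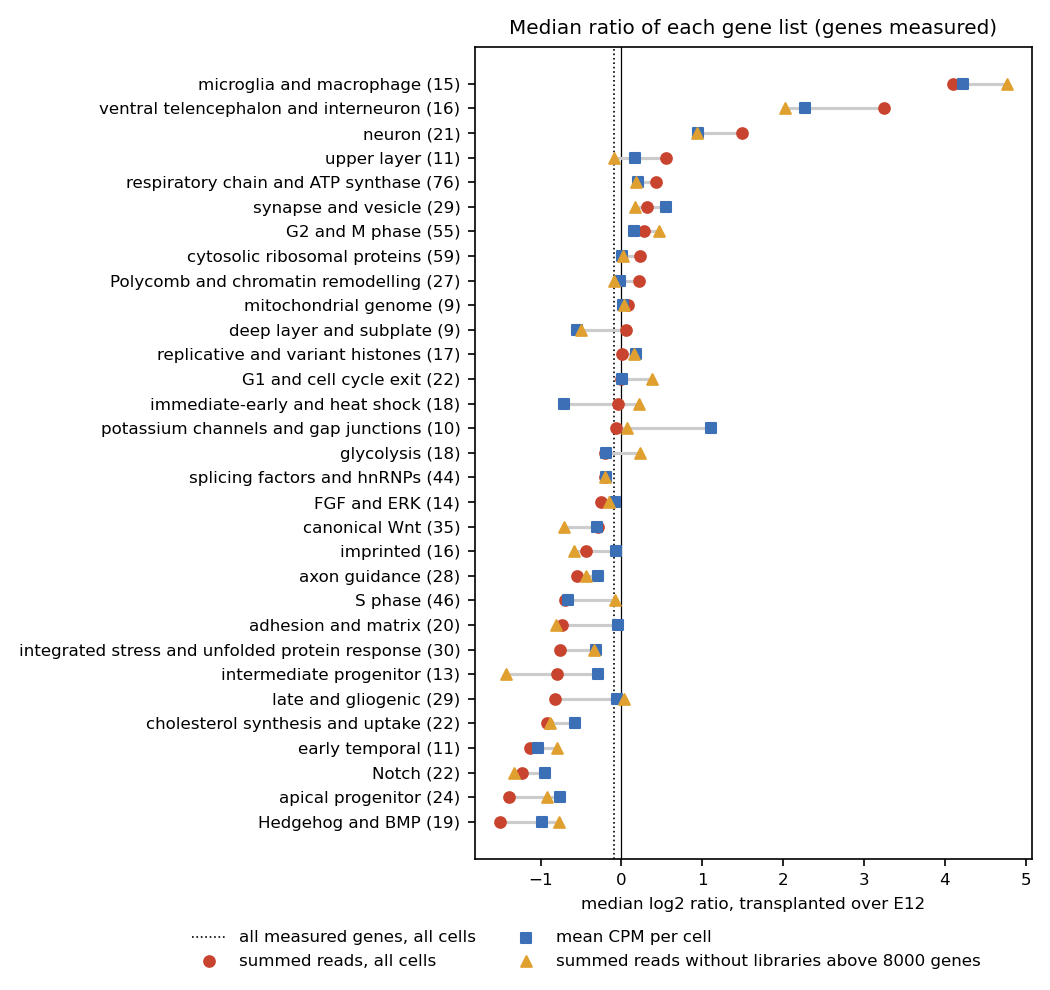
Median log2 ratio of transplanted over E12 cells for each list with at least 9 measured genes (number in parentheses). Red circles use summed reads of all cells, blue squares mean CPM per cell and yellow triangles summed reads without the 5 many-gene libraries, and the dotted line is the median of all measured genes (-0.09). Hedgehog and BMP, apical progenitor, Notch and early temporal genes lie lowest on summed reads, and microglia, ventral telencephalon and neuron genes highest.

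The 12 genes named first were those with the largest deficit in transplanted cells, ranked by what was left of the ratio without any single cell. Nr4a2, a nuclear receptor of subplate and other early neurons (chromosome 2, 57106830 to 57124003, GRCm38), was at 4.33 CPM (3.26 to 5.63) in transplanted and 179 CPM (168 to 192) in E12 cells. It was read in 6 of 19 and 9 of 20 cells, up to 168 and 1227 CPM in 1 cell, and untransplanted E15 cells had 0.854 (1.09) CPM. Dmrt3, a doublesex-related transcription factor of the dorsal telencephalon (chromosome 19, 25610301 to 25623921), was at 1.18 (3.23 over the 14 cells) against 76.5 CPM, with 7.74 (26.3) CPM at E15. The cells of both groups overlapped for each of these genes, because cells without a read occurred in both.

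Cdon, a co-receptor for Hedgehog ligands (chromosome 9, 35421128 to 35507652), stood at 7.63 CPM and in E12 at 220.1 CPM, with a log2 ratio of -4.68 (-5.49 without transplanted replicate 17). It was read in 7 of 19 transplanted cells, up to 247 CPM, and in 12 of 20 E12 cells, up to 865 CPM. Its E15 level of 26.6 (75.9) CPM lay between them. Adgrb3, an adhesion G protein-coupled receptor, was at 3.07 against 187 CPM, with a log2 ratio of -5.53 (-7.04 over the 14 cells, -4.70 without E12 replicate 5). Fat3, an atypical cadherin of neuronal polarity, was at 1.101 against 64.3 CPM, with -4.96 (-3.52 without E12 replicate 13 and -5.60 without transplanted replicate 6). Each was read in more E12 than transplanted cells, 9 against 5 for Adgrb3 and 7 against 3 for Fat3.

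The other 7 lower genes have diverse roles. Etl4, whose product is needed for the notochord and vertebral discs, was at 4.56 against 189.6 CPM with a log2 ratio of -5.10 (-3.96 over the 14 cells, -5.94 without transplanted replicate 18). Cyr61, a secreted matrix-associated protein induced by growth factors, was at 4.09 against 138 CPM, with -4.77 (-3.85 over the 14 cells, -5.80 without transplanted replicate 19). Bst2, an interferon-induced membrane protein, was at 12.9 against 281 CPM, with -4.34 (-3.39 over the 14 cells, -3.31 without E12 replicate 5), and was read in 8 transplanted and 14 E12 cells. For Bst2 the highest transplanted cell, at 576 CPM, came close to the highest E12 cell, at 766 CPM. Apobec1, a cytidine deaminase of messenger RNA, had a log2 ratio of -5.26 (-4.17 over the 14 cells, -5.95 without transplanted replicate 3). Mmd2, a membrane protein of the progestin and adipoQ receptor family, had -3.71 (-4.91 over the 14 cells), at 12.7 against 178 CPM. Pkdcc, a secreted protein kinase, had -4.03 (-4.65 over the 14 cells, -3.24 without E12 replicate 17), and Pnpt1, a mitochondrial ribonuclease, -3.43 (-6.51 over the 14 cells, -4.16 without transplanted replicate 17). Over all E15 cells these 7 genes lay at 2.35 (Pkdcc) to 51.0 CPM (Mmd2), and over the 15 cells at 1.63 (Pkdcc) to 155 CPM (Mmd2). In those 15 cells Cyr61, at 119 CPM, and Mmd2 lay nearer to their E12 than to their transplanted level.

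The genes with the largest excess in transplanted cells, chosen by the same ranking, were near or at 0 in E12 cells. Pbx3, a TALE-class homeobox factor (chromosome 2, 34171457 to 34373142), had no read in 20 E12 cells. Its transplanted level was 78.4 CPM (73.6 to 83.4) over all cells and 42.7 CPM over the 14 cells, with reads in 9 of 19 cells. The level over all cells made Pbx3 at least 129-fold higher, with E12 set to 3 reads over its cells together (0.607 CPM). Here and below, such a bound takes the transplanted level over all cells and covers counting error of E12 reads alone. Over the 14 cells the bound for Pbx3 would be lower. By the same floor Rusc1, an adaptor protein of vesicle traffic in neurons, was at least 78.9-fold and Stk33, a protein kinase, at least 63.6-fold higher, at 47.9 and 38.6 CPM. Pid1, an adaptor that binds a lipoprotein receptor, had 2190 reads against 3, a CPM ratio of 284 (97.0 to 1377). Its log2 ratio was 6.75 (7.49 over the 14 cells, 6.0 without transplanted replicate 19), and it was read in 10 of 19 transplanted and 3 of 20 E12 cells.

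Sst, which encodes the neuropeptide somatostatin (chromosome 16, 23889573 to 23890958), was at 145 CPM (139 to 152) in transplanted and 1.62 CPM (0.699 to 3.19) in E12 cells. Its reads came from 10 of 19 transplanted cells, with a median of 8.91 and a highest cell at 1177 CPM, and from 10 of 26 E15 cells, at 17.7 (50.3) CPM. The highest of the 5 E12 cells with a read had 13.3 CPM, so transplanted cells made up the upper end of the range. Without the many-gene libraries transplanted cells had 72.6 CPM, and the log2 ratio of 5.8 became 4.81. Leaving out transplanted replicate 17 alone gave 5.03.

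Ap1s2, a subunit of a clathrin adaptor, was at 106 against 1.01 CPM with a log2 ratio of 5.73 (6.44 without E12 replicate 17). Rab3c, a GTPase of synaptic vesicles, had 730 reads against 2, a CPM ratio of 142 (39.1 to 1174). Smpd1, the acid sphingomyelinase of lysosomes, was at 65.6 against 1.01 CPM. These 3 were read in 8 to 10 transplanted cells and in 2 to 4 E12 cells. Lancl2, a LanC-like protein, and Zfyve19, a regulator of the last step of cell division, were read in 12 and 11 of 19 transplanted and 3 and 2 of 20 E12 cells. Their CPM ratios were 97.6 (33.3 to 474) and 96.1 (32.8 to 467), from 3 E12 reads each. Rps4l, a ribosomal protein gene whose reads may be shared with its close relative Rps4x, was at 76.7 (35.3 over the 14 cells) against 1.21 CPM.

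**Figure D3:**
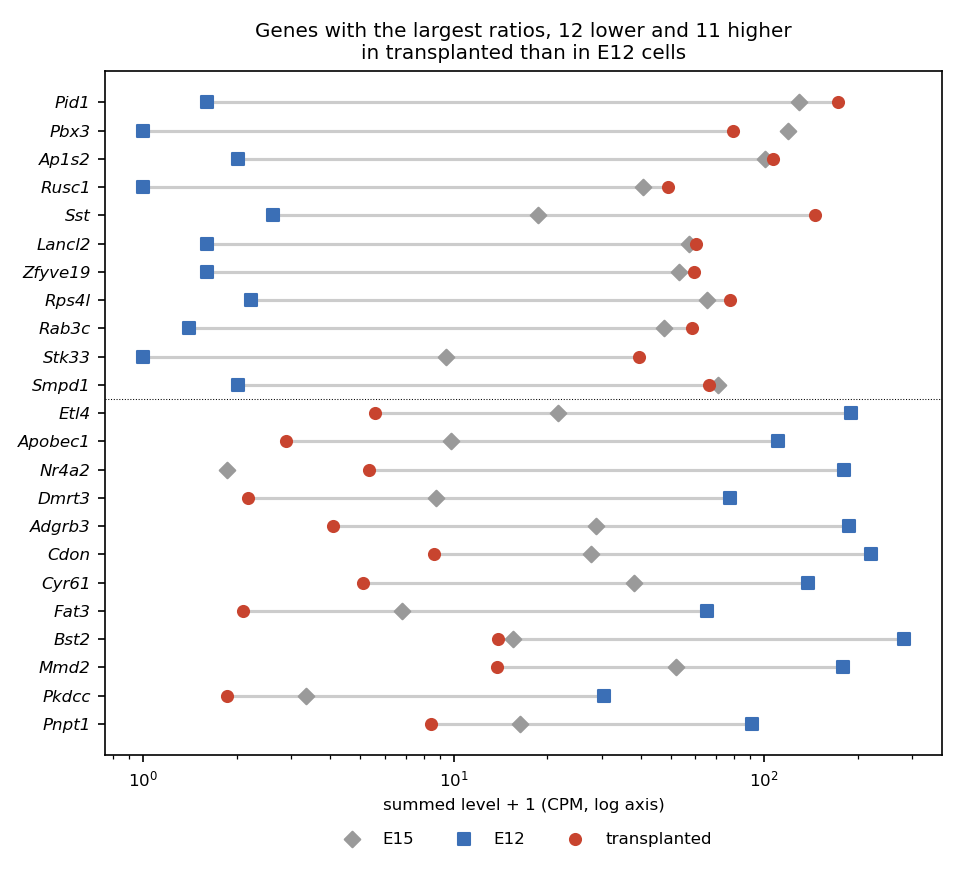
Summed level plus 1 (CPM, log axis) of the 12 genes most lower (below the dotted line) and 11 of the 12 most higher (above it) in transplanted than in E12 cells. Blue squares are E12, red circles transplanted and grey diamonds untransplanted E15 cells, and grey lines join E12 and transplanted levels. Sst and Stk33, at 145 and 38.6 CPM, lie above their E15 level over all E15 cells, 17.7 and 8.40 CPM.

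The 8 genes with the largest difference in mean deposited log10 value in each direction were taken up as well, after their values had been seen. Fhl1, a LIM-domain protein of muscle and other tissues, had the largest deficit, -0.62 on the log10 scale. It was read in all 20 E12 cells, from 40.03 through a median of 467 to 1217 CPM, and in 13 of 19 transplanted cells, from 0 through 53.8 to 763 CPM. The transplanted median thus lay near the lowest E12 cell, although the highest transplanted cell lay above the E12 median. Summed levels were 78.9 against 436 CPM, with 85.9 (172) CPM in untransplanted E15 cells. Id4, which inhibits basic helix-loop-helix factors, was read in 10 of 19 transplanted and 19 of 20 E12 cells, with medians of 26.3 and 235 CPM. Cadm1, an adhesion molecule of the immunoglobulin family, was at 142 (75.4 over the 14 cells) against 671 CPM.

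Further genes low on this scale were Slc25a46, a mitochondrial outer membrane protein, at 27.9 against 167 CPM with a log2 ratio of -2.54 (-3.66 over the 14 cells, -1.48 without E12 replicate 1), and Nfrkb, a subunit of a chromatin remodeller, at 19.1 against 138 CPM with -2.79 (-4.65 over the 14 cells, -2.00 without E12 replicate 5 and -3.39 without transplanted replicate 15). Vegfb, a growth factor, was at 57.2 against 143 CPM, and Cuedc1, a ubiquitin-binding protein, at 54.8 against 119.98 CPM. Sbk1, a kinase of the developing brain, differed on the deposited scale (-0.50) and hardly in summed level, at 453 against 469 CPM, and was not called.

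Among the genes high on the deposited scale, Lmo1, a LIM-only transcriptional cofactor (chromosome 7, 109138572 to 109175207), had a summed level above those of both other groups. It was at 292 CPM (283 to 301) in transplanted, 23.9 CPM (19.8 to 28.6) in E12 and 64.6 (159.9) CPM in E15 cells. Transplanted cells ran from 0 through a median of 155 to 629 CPM and E12 cells from 0 through 5.06 to 335 CPM. The ranges overlapped, yet 16 of 19 transplanted cells had a read against 11 of 20 E12 cells. The log2 ratio of 3.56 was 3.69 with many-gene libraries left out and 2.99 to 3.98 when single cells were left out.

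Mrpl41, a protein of the mitochondrial ribosome, was read in 17 of 19 transplanted and 8 of 20 E12 cells, with medians of 142 and 0 CPM. Its summed levels were 154 against 68.2 CPM, and the log2 ratio of 1.16 was 3.09 without E12 replicate 5. A protein of the small mitochondrial subunit, Mrps24, was at 376 against 234 CPM and was not called. Fndc4, a fibronectin-domain protein (128 against 92.5 CPM), and Erp29, a chaperone of the endoplasmic reticulum read in 19 of 19 transplanted and 11 of 20 E12 cells, were also higher on the deposited scale and not called. Erp29 was at 189.5 against 143 CPM with a log2 ratio of 0.40 (1.47 without E12 replicate 19). The remaining ones, Fabp7, Hbb-y and Hbb-bt, are described with their groups.

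Of the 24 apical progenitor genes, 21 had a log2 ratio below 0 and 3 above, with a median of -1.38 (-0.92 with many-gene libraries left out, -0.76 on mean CPM per cell). Called lower were 8 (33.3%, 12.3% of all genes) and called higher 1. On the deposited scale the median was -0.02, about that of all genes (-0.02). Pax6, the paired-box factor that defines cortical progenitors (chromosome 2, 105668900 to 105697364), was at 188 CPM (181 to 196) against 1681 CPM (1645 to 1718). Cells ran from 0 through a median of 307 to 956 CPM in the transplanted group and from 0 through 1108 to 6566 CPM at E12. Every transplanted cell thus lay below the E12 median, while the ranges overlapped in their lower part. The log2 ratio of -3.15 was -2.39 with many-gene libraries left out, and untransplanted E15 cells had 289 (742) CPM.

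Emx2, a homeobox factor of the dorsal telencephalon, was at 18.6 against 146 CPM (log2 ratio -2.91, -1.84 with many-gene libraries left out). Its median cell was at 4.97 CPM among transplanted and 143 CPM among E12 cells. Prom1, a protein of apical membrane protrusions, was at 35.3 against 126 CPM, and Pard3, a polarity protein of the apical junction, at 40.1 against 101 CPM. Ednrb, an endothelin receptor of radial glia, was at 33.2 against 157 CPM, with a log2 ratio of -2.2 (-3.01 without transplanted replicate 2). Emx1, Lhx2 and Gli3, other patterning factors of the cortex, had log2 ratios of -2.27 (-1.15 over the 14 cells), -1.93 (-1.14 over the 14 cells) and -1.91 (-0.76 over the 14 cells) and were not called, because mean CPM per cell differed less than 2-fold (-0.18, -0.73 and -0.70). Sox2 and Vim, an intermediate filament protein, had -0.89 and -0.61, and -0.05 and 0.14 with many-gene libraries left out.

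Fabp7, which binds fatty acids in radial glia (chromosome 10, 57784881 to 57788450), went the other way, at 3038 CPM against 1021 CPM. Transplanted cells ran from 213 through a median of 1387 to 10792 CPM and E12 cells from 20.1 through 720.4 to 4918 CPM, and it had the largest positive difference of all genes on the deposited scale (0.72). Its log2 ratio of 1.57 was 2.77 with many-gene libraries left out, and 0.05 without transplanted replicate 19, which held 72.2% of the transplanted Fabp7 reads. In the 7 and 7 cells with IL numbers 5 to 7 it was -0.91. The difference between median cells was smaller than that between summed levels, and the ranges overlapped.

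**Figure D4:**
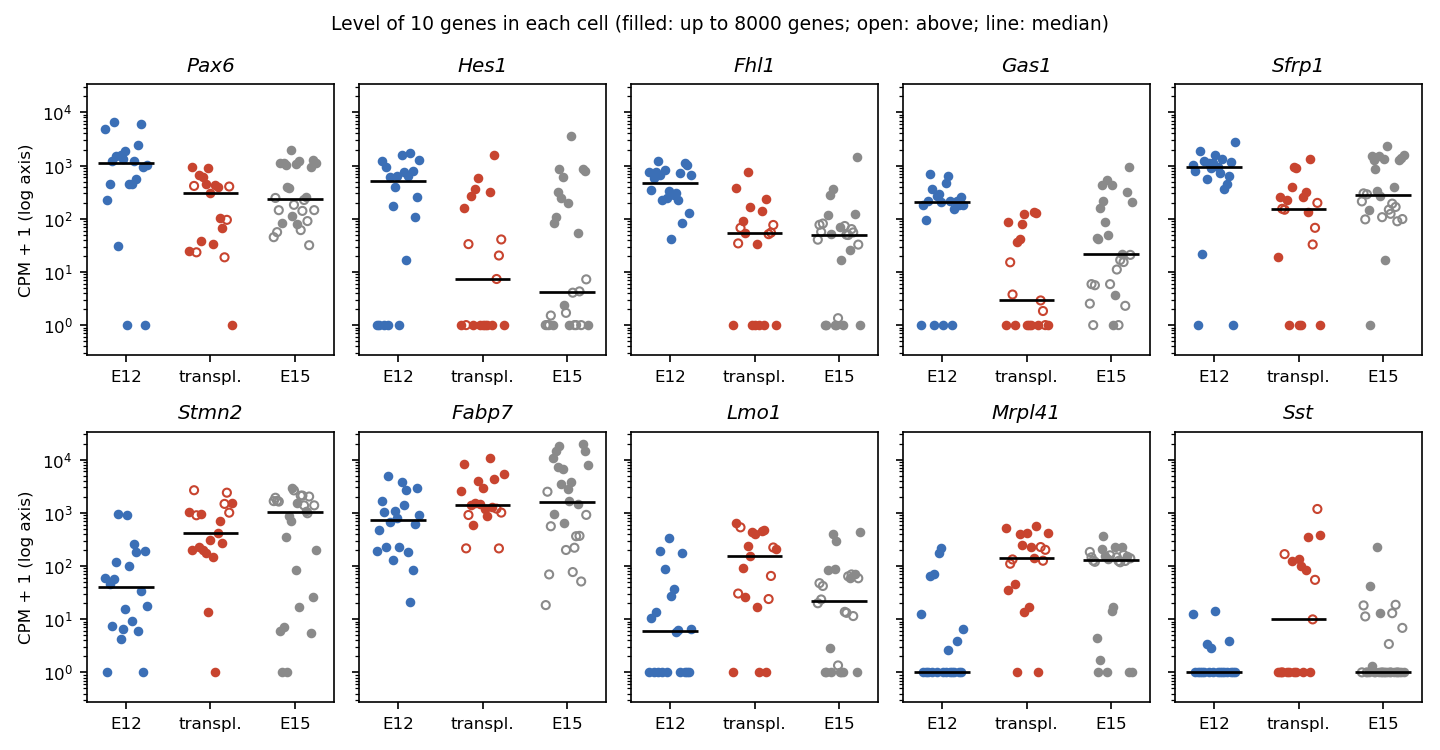
Level plus 1 (CPM, log axis) of 10 genes in each cell of the E12 (blue), transplanted (red) and untransplanted E15 (grey) groups. Filled points have up to 8000 genes, open points more, and black lines are medians. Between E12 and transplanted cells, the median is higher at E12 for Pax6, Hes1, Fhl1, Gas1 and Sfrp1. It is higher in transplanted cells for Stmn2, Fabp7, Lmo1, Mrpl41 and Sst.

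Notch signalling works through ligands on 1 cell that let a protease release the intracellular part of the receptor on its neighbour, which then switches on Hes and Hey repressors together with the DNA-binding protein Rbpj. Of 22 measured genes of this pathway 16 were lower and 6 higher in transplanted cells, with a median log2 ratio of -1.24 (-1.33 with many-gene libraries left out, -0.94 on mean CPM). Called lower were 8 (36.4%, 12.3% of all genes) and called higher 0. The deposited median was -0.04. Before the results by role, the promoters of an enzyme that modifies the receptors and of a target are shown, because the motif bound by Rbpj can be read in them. Capitals mark TGGGAA, the core of that motif, and its reverse complement TTCCCA. Sequences are from RefSeq (GRCm38.p6), from 250 bases before the start of transcription, and both genes lie on the plus strand, Lfng at chr5:140607091-140607340 and Hes5 at chr4:154960673-154960922.
Lfng: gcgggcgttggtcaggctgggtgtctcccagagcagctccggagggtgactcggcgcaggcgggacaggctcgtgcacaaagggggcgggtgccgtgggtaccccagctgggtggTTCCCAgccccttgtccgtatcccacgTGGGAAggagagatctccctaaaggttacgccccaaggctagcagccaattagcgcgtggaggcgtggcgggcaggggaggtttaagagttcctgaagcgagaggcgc
Hes5: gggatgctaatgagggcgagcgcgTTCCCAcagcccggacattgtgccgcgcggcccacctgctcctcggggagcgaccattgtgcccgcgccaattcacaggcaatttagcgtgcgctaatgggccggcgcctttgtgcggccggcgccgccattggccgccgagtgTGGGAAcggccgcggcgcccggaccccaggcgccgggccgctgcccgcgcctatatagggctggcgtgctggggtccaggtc
Of all 32851 promoter windows of 300 bases, from 250 before to 50 after a start, 25.6% hold this motif on either strand. Of the 17 Notch genes with a window 5 hold it in at least 1 window, and of the 6 genes called lower that have a window 1 does, Lfng. Several of these genes have more than 1 window, so the counts of genes are not on the same footing as the share of windows. A match here is a stretch of letters and not a binding site.

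The receptors Notch1 and Notch2 were both called lower, at 1.65 against 11.1 CPM and 2.75 against 29.7 CPM. Their log2 ratios were -2.19 and -3.03 (-2.00 over the 14 cells, -2.10 without E12 replicate 17 and -3.75 without transplanted replicate 19), with reads in 4 and 3 of 19 transplanted and 7 and 4 of 20 E12 cells. Of the ligands, Dll1 and Dll3 had log2 ratios of -0.85 (-1.44 over the 14 cells) and -0.80 (-1.68 over the 14 cells) and were not called. Adam10, a protease that cuts the receptor once a ligand is bound, was at 29.3 against 83.0 CPM, with -1.47 (-2.24 over the 14 cells, -0.70 without E12 replicate 9). Lfng, a glycosyltransferase that tunes the receptor's choice of ligand, was at 2.67 against 22.7 CPM, with -2.69 (-3.37 over the 14 cells, -1.45 without E12 replicate 17), and 23.96 (69.7) CPM at E15. Its relative Mfng was not called, at 321 against 204 CPM with 0.65 (1.27 without E12 replicate 9). Maml1, a coactivator of the Notch complex, had a log2 ratio of -2.58 (-3.26 over the 14 cells, -0.80 without E12 replicate 6 and -3.29 without transplanted replicate 15). For Numb, an inhibitor of the receptor, the log2 ratio of -2.51 (-4.54 over the 14 cells) rested on E12 replicate 10 and was 0.66 without it.

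Among the targets, Hes1 (chromosome 16, 30064384 to 30067796) was at 98.3 CPM (92.9 to 104) against 547 CPM (527 to 568). It was read in 10 of 19 transplanted cells, with a median of 6.36 and a highest cell at 1543 CPM, and in 15 of 20 E12 cells, with a median of 505 and a highest cell at 1691 CPM. The groups covered much the same range, while the median cells lay far apart. The log2 ratio was -2.47 (-3.62 without transplanted replicate 19), and -1.24 with many-gene libraries left out. Hey1 followed, at 39.4 against 189.99 CPM with -2.24 (-1.05 over the 14 cells, -3.29 without transplanted replicate 19). Hes5 was at 55.1 against 111 CPM over all cells, with a log2 ratio of -1.0 (0.21 over the 14 cells), and Hes6, a relative that opposes Hes1, at 789 against 603 CPM, and neither was called.

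Hedgehog ligands act through Patched, Smoothened and Gli factors with the co-receptors Cdon, Boc and Gas1, and BMPs act through Smad proteins and raise Id genes. Of 19 measured genes of these pathways 17 were lower and 2 higher, and the median log2 ratio was -1.50 (-0.77 with many-gene libraries left out, -0.09 on the deposited scale). Called lower were 6 (31.6%, 12.3% of all genes) and called higher 0, and the 3 co-receptors were all among the 6. Gas1 was at 36.8 CPM (33.5 to 40.3) against 285 CPM (270.4 to 300.4), with median cells at 1.91 and 208 CPM and highest cells at 130.00 and 697 CPM. No transplanted cell reached the E12 median, while cells without a read occurred in both groups. Its log2 ratio was -2.92 (-1.58 over the 14 cells, -4.35 without transplanted replicate 19), and untransplanted E15 cells had 52.7 (164) CPM. Boc was at 22.2 against 153 CPM, with -2.73 (-1.38 over the 14 cells, -3.68 without transplanted replicate 2), and 5.12 (9.34) CPM at E15.

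On the side of the BMP signal, Smad7, an inhibitor of the pathway, was at 2.67 against 61.1 CPM with -4.08 (-3.02 without E12 replicate 5). Nog, which encodes the BMP antagonist noggin, was at 10.3 against 81.7 CPM with -2.87 (-1.69 over the 14 cells, -4.09 without transplanted replicate 19). Id4 was the sixth gene, with -1.96 (-1.35 over the 14 cells). Smo, the signal transducer of Hedgehog, had -2.39 and was not called, because the mean CPM per cell did not differ 2-fold. Ptch1, the receptor and itself a Hedgehog target, was at 9.75 against 10.1 CPM, with -0.05 (1.06 over the 14 cells). The members called lower thus include Hedgehog co-receptors and BMP inhibitors.

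Of 35 canonical Wnt genes 24 were lower and 11 higher, and the median log2 ratio was -0.29 (-0.70 with many-gene libraries left out). Called lower were 5 (14.3%, 12.3% of all genes) and called higher 1. Sfrp1, a secreted Wnt antagonist of early progenitors (chromosome 8, 23411502 to 23449632), was at 179 CPM (172 to 187) against 926 CPM (899 to 953). Cells ran from 0 through a median of 153 to 1342 CPM in the transplanted and from 0 through 928 to 2730.04 CPM in the E12 group. The log2 ratio of -2.36 (-1.69 over the 14 cells) stayed between -2.68 and -2.2 when single cells were left out. Fzd3, a Frizzled receptor, was at 46.2 against 136 CPM with -1.53. The other genes called on this list (Lrp6, Dvl3 and Tle3 lower, Znrf3 higher) depended more on single cells: the log2 ratio was -1.25 (0.36 without E12 replicate 13) for Lrp6, a co-receptor, -1.21 (1.51 without E12 replicate 19) for Dvl3, which relays the signal, -1.78 (-0.63 without E12 replicate 5) for Tle3, a corepressor, and 1.24 (2.54 over the 14 cells, -0.45 without transplanted replicate 2) for Znrf3, a ligase that removes receptors.

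FGF and ERK genes were evenly split, 7 lower and 7 higher of 14 with a median of -0.25 (-0.15 over the 14 cells). In each direction 3 were called (21.4%, against 9.64% of all genes called higher and 12.3% lower). The receptors Fgfr1 and Fgfr3 were lower, at 29.0 against 107 CPM and 13.5 against 84.8 CPM, with log2 ratios of -1.85 (-1.10 over the 14 cells, -1.06 without E12 replicate 13) and -2.56 (-1.53 over the 14 cells, -4.32 without transplanted replicate 2). The ERK inhibitors Spred1 and Spred2 went in opposite directions, Spred1 at 30.1 (46.8 over the 14 cells) against 99.95 CPM and Spred2 at 12.03 CPM against no E12 read, at least 19.8-fold higher. With 1 CPM added the log2 ratio of Spred2 was 3.70 (2.97 without transplanted replicate 18). Fgf13, an intracellular member of the FGF family that acts in neurons, was at 105 against 17.2 CPM.

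Progenitors of the cortex change their own gene expression with age, and 2 lists were used to place the transplanted cells on that axis. Of 11 early temporal genes 8 were lower and 3 higher in transplanted cells, with a median of -1.13 (-0.80 with many-gene libraries left out, -0.07 on the deposited scale). Called lower were 3 (27.3%, 12.3% of all genes), Igf2bp1, Nr4a2 and Sfrp1, and 0 were called higher. The summed list was at 852 CPM in the median transplanted cell and 1796 CPM in the median E12 cell, with ranges of 48.6 to 2382 and 107 to 5281 CPM. Over each group the sum was 757 (810 over the 14 cells) CPM in transplanted, 2326 CPM in E12 and 728 (1580) CPM in E15 cells. Igf2bp1, an RNA-binding protein of young progenitors, was at 33.7 against 165 CPM with -2.26 (-1.48 without E12 replicate 5), and 15.9 (31.6) CPM at E15, although its median cell was higher in the transplanted group, at 14.3 against 2.92 CPM. Nr2f1, an orphan nuclear receptor of area patterning, was at 265 (161 over the 14 cells) against 630.1 CPM and was not called, since its deposited difference was 0.23. Nr2f2, its relative, was at 34.4 against 3.04 CPM, with a log2 ratio of 3.13 (1.75 without transplanted replicate 15 and 3.85 without E12 replicate 16), and 0.14 with many-gene libraries left out.

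Of 29 late and gliogenic genes 19 were lower and 10 higher, and the median log2 ratio was -0.82. That median was 0.03 with many-gene libraries left out, -0.06 on mean CPM per cell and 0.10 on the deposited scale, so the direction depended on the scale. Called lower were 7 (24.1%, 12.3% of all genes) and called higher 3 (10.3%, 9.64% of all genes). Ptn, a secreted heparin-binding growth factor, was at 437 (728 over the 14 cells) against 2006 CPM, with median cells at 282 and 1690.2 CPM, and 1050.5 (3159) CPM at E15. Nfib and Nfix, factors of the nuclear factor I family that act in gliogenesis, were at 309.7 against 1207 CPM and 102 (153 over the 14 cells) against 536 CPM, with 646 (1076) and 469 (944) CPM in untransplanted E15 cells. Nfix was read in 14 of 19 transplanted and 18 of 20 E12 cells, with medians of 71.8 and 561 CPM. On these 3 genes the transplanted level lay below both the E12 and the E15 level.

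Hopx, a homeodomain-only protein that marks outer radial glia, stood at 5.35 CPM against 112 CPM at E12 and 56.3 (183) CPM at E15, with a log2 ratio of -4.15 (-4.91 without transplanted replicate 2). Aldoc, the brain form of aldolase, and Ttyh1, a membrane protein of radial glia, were at 116 (293 over the 14 cells) against 708 CPM and 83.3 (137 over the 14 cells) against 609 CPM. Both were read in most cells of each group, with median cells at 31.2 and 826 CPM for Aldoc and 78.1 and 555 CPM for Ttyh1. Sparcl1, a matrix protein of astrocytes, had 2 reads in transplanted cells and 364 at E12, a CPM ratio of 468 (129 to 3881) of E12 over transplanted, and the E12 reads came from 4 cells. Its log2 ratio was -6.01 (-4.82 without E12 replicate 9). The genes called higher were Fabp7, Lgals1 and Aldh1l1. Lgals1, a galectin, was at 362 against 43.9 CPM, with median cells at 134 and 6.08 CPM and a log2 ratio of 3.01 (4.08 over the 14 cells, 4.46 without E12 replicate 9). Aldh1l1, a folate enzyme of astrocytes, had 96.0% of its transplanted reads in replicate 19, and its log2 ratio was 4.0 (5.39 over the 14 cells, 0.16 without transplanted replicate 19 and 4.69 without E12 replicate 9).

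Neuron genes lay higher in transplanted cells. Of 21 measured genes 16 were higher and 5 lower, and their median log2 ratio was 1.49 (0.93 when many-gene libraries were left out, 2.41 without E12 replicate 19). Called higher were 4 (19%, 9.64% of all genes) and called lower 0, and the deposited median was -0.02. The list sum was 7496 CPM over all transplanted cells, 3954 CPM with many-gene libraries left out and 2003 CPM at E12. In untransplanted E15 cells it was 7406 (4270) CPM, near the transplanted sums. Stmn2, a microtubule regulator of growing axons (chromosome 3, 8509360 to 8561606), was at 1113 against 118 CPM. Transplanted cells ran from 0 through a median of 414 to 2653 CPM and E12 cells from 0 through 39.0 to 938 CPM, so the median transplanted cell lay above the E12 median and below the highest E12 cell. Its log2 ratio was 3.22 (4.63 without E12 replicate 19), and 2.14 with many-gene libraries left out.

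Tubb3, the beta tubulin of neurons, stood at 1149 against 227 CPM with 2.33 (2.93 without E12 replicate 19), and 1.25 with many-gene libraries left out. Gap43, a growth cone protein, was at 312 against 39.3 CPM with 2.96 (1.91 over the 14 cells, 4.14 without E12 replicate 18 and 2.28 without transplanted replicate 14), and its deposited difference of 0.35 was larger than those of Stmn2 and Tubb3. Dcx and Dpysl3, which bind microtubules in migrating and growing neurons, had log2 ratios of 2.08 (1.23 over the 14 cells) and 2.60 (1.52 over the 14 cells) and were not called, because the deposited values pointed down (-0.06 and -0.11). Neurod2 and Neurod6, factors of young excitatory neurons, had -1.24 (-2.72 over the 14 cells) and -0.32 (-0.97 over the 14 cells). Both lay below 0, unlike most of the list.

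Of 13 intermediate progenitor genes 9 were lower and 4 higher, and their median log2 ratio was -0.80 (-1.43 when many-gene libraries were left out, -0.21 without E12 replicate 11). Called lower were 2 (15.4%, 12.3% of all genes) and called higher 0. Eomes, the T-box factor that marks these cells, was at 26.4 against 87.8 CPM with -1.70 (-2.62 without transplanted replicate 17), in 7 of 19 and 9 of 20 cells. Btg2, which slows the cell cycle before neurogenic division, was at 16.99 against 45.3 CPM with -1.36 (-0.53 without E12 replicate 19). Neurog2, a proneural factor, had -1.73 (-0.09 without E12 replicate 5) and was not called.

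Layer genes were mixed. Of 9 deep-layer and subplate genes 5 were higher and 4 lower, and their median log2 ratio was 0.05 (-0.50 when many-gene libraries were left out, -0.68 without transplanted replicate 17). In each direction 2 were called (22.2%, against 9.64% of all genes called higher and 12.3% lower). Foxp2, of the forkhead family and found in corticothalamic neurons, was at 79.5 against 6.07 CPM with 3.51 (2.89 over the 14 cells, 4.22 without E12 replicate 4), and Etv1, an ETS factor of deep-layer projection neurons, at 33.2 against 2.83 CPM with 3.16 (3.93 over the 14 cells, 4.39 without E12 replicate 10 and 2.45 without transplanted replicate 19). Nr4a2, described above, was lower, as was Tle4, a corepressor of deep-layer neurons. Tle4 was at 41.0 against 180.5 CPM with -2.11 (-5.04 over the 14 cells, -0.99 without E12 replicate 19). Of 11 upper-layer genes 7 were higher and 4 lower (median 0.55, -0.10 with many-gene libraries left out). Unc5d, a netrin receptor, was the 1 gene called (9.09%, 9.64% of all genes), with 165 reads against 3, a CPM ratio of 21.4 (7.19 to 105). Its log2 ratio was 3.12 (4.26 over the 14 cells, 1.62 without transplanted replicate 19).

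Synaptic genes had 7 of 29 members called higher (24.1%, 9.64% of all genes) and 2 lower (median 0.31, 0.17 over the 14 cells and 1.77 without E12 replicate 19). Scg3 and Chga, proteins of dense-core secretory granules, were at 144 against 5.06 CPM and 35.5 against 0.405 CPM. Scg3 had a log2 ratio of 4.59 (2.35 over the 14 cells, 6.01 without E12 replicate 20), and Chga, from 2 E12 reads, a CPM ratio of 87.8 (24.2 to 728). Rab3a, a vesicle GTPase, was at 215 against 36.8 CPM, with 2.52 (1.56 over the 14 cells, 4.01 without E12 replicate 18). Gria2, an AMPA receptor subunit, went the other way, at 82.7 against 365 CPM with -2.13 and a deposited difference of -0.45. Of Scg3, Chga and Rab3a, Chga had the largest fall in ratio with many-gene libraries left out, to a log2 ratio of 1.44 from 4.70.

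Guidance and adhesion genes contained called members on both sides. In the guidance list 16 of 28 were lower (median -0.54, -0.44 over the 14 cells and 0.31 without E12 replicate 19), with 5 called lower (17.9%, 12.3% of all genes) and 2 higher. Efnb1, an ephrin ligand on progenitors, was at 52.0 against 402 CPM, with median cells at 36.4 and 191 CPM and a log2 ratio that stayed between -3.11 and -2.56 when single cells were left out. Nrp1, a semaphorin receptor, had -2.74 (-1.66 without E12 replicate 19 and -3.46 without transplanted replicate 17), and Sema3a and Sema5a, repulsive ligands, had -3.30 (-1.34 without E12 replicate 9 and -3.97 without transplanted replicate 19) and -2.78 (-1.74 over the 14 cells, -3.42 without transplanted replicate 19). Slit1, a ligand of Robo receptors, was at 15.2 CPM against no E12 read, at least 25.004-fold higher, and its log2 ratio of 4.02 (4.77 over the 14 cells) was 3.25 without transplanted replicate 19. Of 20 adhesion and matrix genes 15 were lower (median -0.73, -0.81 over the 14 cells and -0.04 on mean CPM). Vcan, a matrix proteoglycan, was higher, at 51.7 against 1.21 CPM, and Cdh2, the N-cadherin of the apical junction, had -1.46 and was not called.

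Of 46 S phase genes 40 were lower and 6 higher in transplanted cells, with a median of -0.70, and -0.07 with many-gene libraries left out, when 24 were lower and 22 higher. Called lower were 5 (10.9%, 12.3% of all genes) and called higher 1. The list sum had medians of 6165 CPM in transplanted and 9989.9 CPM in E12 cells, 8899 CPM in the transplanted cells with many-gene libraries left out and 3607 CPM in those 5. Atad2, a bromodomain protein of replicating chromatin, was at 54.4 against 319 CPM (-2.53), with median cells at 49.4 and 142 CPM. Exo1, an exonuclease of repair, had -3.03 (-3.88 over the 14 cells), and Fen1, the flap endonuclease of lagging-strand synthesis, -1.96. Clspn, a checkpoint mediator, was the gene called higher, at 38.9 against 13.2 CPM with 1.5 (2.78 without E12 replicate 18).

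Of 55 genes of G2 and M phase 35 were higher and 20 lower (median 0.28, 0.47 with many-gene libraries left out). In each direction 4 were called (7.27%, against 9.64% of all genes called higher and 12.3% lower). Cdc20, the activator of the anaphase-promoting complex, was at 306 against 44.3 CPM, with median cells at 199.7 and 6.74 CPM and log2 ratios of 2.20 to 3.15 as each cell was left out in turn. Aurka, a centrosomal kinase, had 1.37 (1.97 over the 14 cells, 2.14 without E12 replicate 17). Mki67, a protein of proliferating cells, was lower, at 54.7 against 144 CPM with -1.38. Of 22 genes of G1 and cell cycle exit 11 were higher and 11 lower (median -0.01, 0.37 over the 14 cells), and Rb1, the retinoblastoma protein, was at 42.9 (27.2 over the 14 cells) against 6.07 CPM.

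The integrated stress response and the unfolded protein response had 23 of 30 genes lower and 7 higher, and the median log2 ratio was -0.76 (-0.34 with many-gene libraries left out, -0.31 on mean CPM). Called lower were 3 (10%, 12.3% of all genes) and called higher 1. Pdia4, an enzyme of disulfide bonds, was at 90.7 against 219 CPM (-1.26), Cebpg, a bZIP factor, at 52.4 against 172 CPM (-1.69), and Dnajb9, a chaperone of the endoplasmic reticulum, at 6.21 against 54.2 CPM, with -2.94 (-2.27 without E12 replicate 9). Nupr1, a stress-induced chromatin protein, was the gene called higher, with 3.10 (3.87 without E12 replicate 18 and 2.48 without transplanted replicate 19). Hspa5, the main chaperone of that compartment, had -1.46 and was not called. Immediate-early and heat shock genes were split 9 to 9, with a median of -0.04 (0.22 over the 14 cells and -0.71 on mean CPM) and 3 called lower (16.7%, 12.3% of all genes). Fos, the best known of them, was at 11.8 against 97.5 CPM, and its log2 ratio of -2.94 (-3.95 over the 14 cells) was -0.75 without E12 replicate 7, the cell with the highest level (5832 CPM).

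Cholesterol synthesis and uptake had 20 of 22 genes lower and 2 higher, and the median log2 ratio was -0.92 (-0.88 with many-gene libraries left out, 0.01 on the deposited scale). Called lower were 3 (13.6%, 12.3% of all genes) and called higher 2 (9.09%, 9.64% of all genes), both near the share of all genes. Msmo1, a sterol oxidase, was at 55.1 (36.0 over the 14 cells) against 385 CPM, with median cells at 35.4 and 179 CPM and log2 ratios of -3.17 to -2.55 over left-out cells. Sqle, the squalene epoxidase, was at 68.5 against 146 CPM. Both genes above 0 were called higher: Mvk, mevalonate kinase, at 58.3 against 4.86 CPM with 3.34 (1.64 over the 14 cells, 4.07 without E12 replicate 6), and Lss, lanosterol synthase, at 52.2 against 12.5 CPM with 1.97 (2.95 over the 14 cells, 2.83 without E12 replicate 2). In glycolysis 13 of 18 were lower (median -0.20), but over the 14 cells 11 were higher and 7 lower (median 0.23), so the direction rested on the many-gene libraries. Slc2a1, the glucose transporter of the blood-brain barrier, was at 9.04 against 85.8 CPM with -3.11 (-4.03 over the 14 cells), and Hk2, a hexokinase, at 58.0 against 239 CPM with -2.02 (-1.19 over the 14 cells, -1.33 without E12 replicate 5).

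Of 76 genes of the respiratory chain and ATP synthase 65 were higher and 11 lower, and the median log2 ratio was 0.43 (0.18 with many-gene libraries left out). The 1 gene called (1.32%, 9.64% of all genes) was Ndufv3, a subunit of the first complex, at 925 against 168 CPM, with median cells at 779 and 136 CPM and log2 ratios of 2.06 to 2.7 over left-out cells. It was read in 18 of 19 transplanted and 18 of 20 E12 cells, and E15 cells had 739 (739) CPM. Cytosolic ribosomal proteins had 41 of 59 higher and a median of 0.24 (0.01 with many-gene libraries left out), and the 9 genes of the mitochondrial genome had 0.08 (0.03 over the 14 cells). Among 16 imprinted genes (median -0.44, -0.58 over the 14 cells) 3 were called higher (18.8%, 9.64% of all genes) and 1 lower (6.25%, 12.3% of all genes). H19, a long noncoding RNA expressed from the maternal allele, had 615 reads against 2, a CPM ratio of 119.5 (32.9 to 989), and its log2 ratio of 5.14 (6.31 over the 14 cells) was 4.01 without transplanted replicate 19. Grb10, an adaptor that dampens growth factor signals, was at 66.4 (106 over the 14 cells) against 312 CPM.

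Membrane excitability is another feature that changes with the age of progenitors, and 10 genes of potassium channels and gap junctions were measured, 5 higher and 5 lower (median -0.07, 0.06 over the 14 cells, 0.68 without transplanted replicate 19, -0.77 without transplanted replicate 17 and -0.76 without transplanted replicate 18). Kcnk2, a background potassium channel, was at 23.04 against 0.809 CPM in 9 of 19 and 4 of 20 cells, with log2 ratios of 3.43 to 3.91 over left-out cells and 68.1 (125) CPM at E15. Kcnd3, a channel of the transient outward current, was at 16.8 against 2.02 CPM with 2.56 (3.47 over the 14 cells, 1.20 without transplanted replicate 16 and 3.88 without E12 replicate 20). Panx1, which forms large membrane channels, was lower, at 41.1 against 153 CPM with -1.87.

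Markers of several cell types that a cortical progenitor sample should lack were also more abundant in transplanted than in E12 cells. All 16 ventral telencephalon and interneuron genes had log2 ratios above 0, with a median of 3.25 (2.02 with many-gene libraries left out, 4.29 without E12 replicate 19 and 2.62 without transplanted replicate 6). Their sum was 25.1 to 5350.5 CPM in transplanted cells (median 1271) and 0 to 2544 CPM in E12 cells (median 273). Summed over each group, the list was at 2711 CPM in transplanted, 390 CPM in E12 and 3656 CPM in untransplanted E15 cells. With many-gene libraries left out it was at 2002 CPM in transplanted and 735 CPM in E15 cells. Which of these groups was higher thus depended on those libraries. Called higher were 3 (18.8%, 9.64% of all genes), Dlx2, Dlx5 and Lhx6, homeobox factors of interneuron precursors. Dlx2 was at 395 against 25.3 CPM, in 13 of 19 and 11 of 20 cells, and Dlx5 at 238 against 19.4 CPM, with log2 ratios of 3.91 (4.99 without E12 replicate 19) and 3.55 (6.83 without E12 replicate 19). Lhx6 had 3.89 (6.28 without E12 replicate 17, 3.25 without transplanted replicate 15 and -0.49 without libraries above 7000 genes). It was at 34.7 (12.1) CPM in untransplanted E15 cells against 131 CPM in transplanted ones, the reverse of the order of the list sum over all cells. On the deposited scale the list's median was -0.09, and the difference was above 0 for 3 of the 16 genes.

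Microglia and macrophage genes had 17 members, of which 15 passed 5 CPM. Of these 14 were higher and 1 lower (median 4.10, 4.76 with many-gene libraries left out, -0.09 on the deposited scale), and the deposited difference was above 0 for 1 of the 15. Transplanted replicate 18 held 41.6% of the reads, and the sum reached 26992 CPM in replicate 8, with a median cell at 447 CPM against 41.4 CPM at E12. Over each group the sum was 1372 (2237 over the 14 cells) CPM in transplanted, 136 CPM in E12 and 3788 (1451) CPM in E15 cells. C1qa, a complement component, was the 1 gene called (6.67%, 9.64% of all genes), at 69.2 against 1.01 CPM with 5.13 (6.02 over the 14 cells, 4.26 without transplanted replicate 18). The 5 globin genes were high in both groups. Their sum ran from 25.2 through a median of 4698 to 64865 CPM in transplanted and from 322 through 2946 to 21298 CPM in E12 cells. Replicate 19 held 83.6% of the transplanted globin reads, and the list's median of 2.23 was 3.68 over the 14 cells and -0.52 without transplanted replicate 19. In the many-gene libraries the sum was at most 147 CPM. Hbb-y, the embryonic beta globin, was at 1692 against 468 CPM with 1.85 (3.28 over the 14 cells, 0.69 without transplanted replicate 18), and its deposited difference was 0.69. Hbb-bt, an adult one whose reads may be shared with Hbb-bs, had 2.86 (4.31 over the 14 cells, -0.64 without transplanted replicate 19). Of the other marker lists, 1 gene each was measured for endothelial, fibroblast, choroid plexus and oligodendrocyte cells, and 0 for pericytes and Cajal-Retzius cells. Egfl7 of endothelium was at 2.75 against 18.4 CPM, with a log2 ratio of -2.37 (-3.76 over the 14 cells, -3.35 without transplanted replicate 14, -1.45 without E12 replicate 6 and -1.54 without E12 replicate 20). Ttr of choroid plexus was at 18.7 against 119.6 CPM with -2.61 (-1.38 over the 14 cells, -4.34 without transplanted replicate 11). Col1a2 of fibroblasts was at 5.11 CPM against no E12 read, with 2.61 (1.85 without transplanted replicate 16) after adding 1 CPM. Whether RNA of other cells plays a part in the differences of the progenitor, neuron and signalling lists was not tested.

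**Figure D5:**
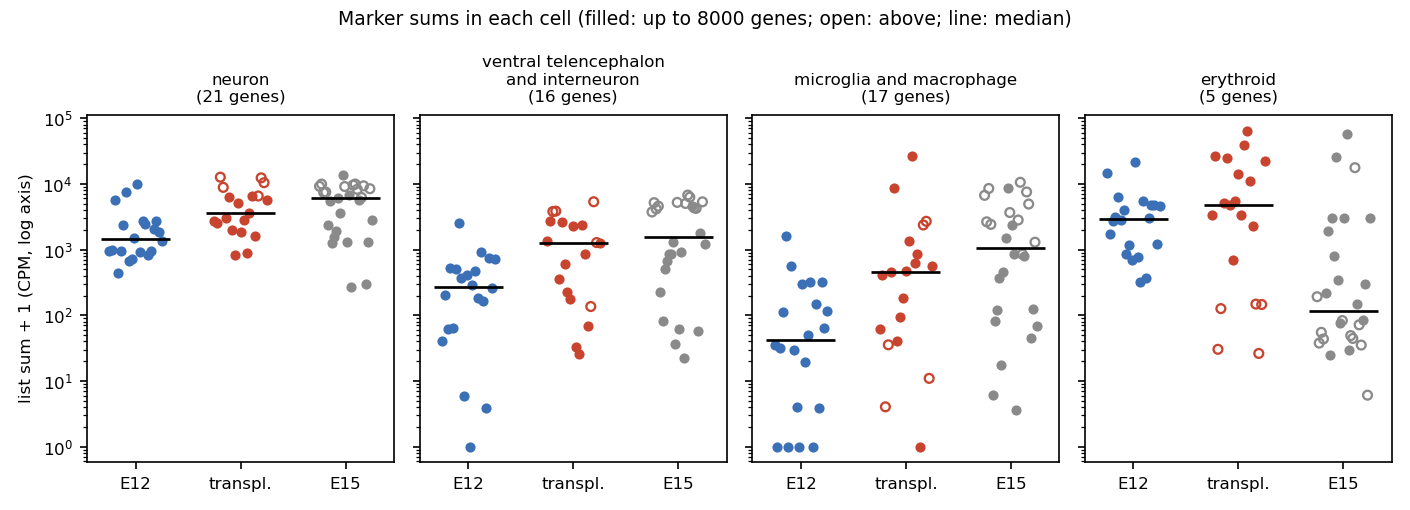
Summed level plus 1 (CPM, log axis) of 4 marker lists in each E12 (blue), transplanted (red) and untransplanted E15 (grey) cell. Filled points have up to 8000 genes, open points more, and black lines are medians. The transplanted many-gene libraries have neuron sums of 6545 to 12674 CPM and globin sums of at most 147 CPM, below every other transplanted cell.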

How the data were processed

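Single-cell libraries were made with a SMART-Seq v4 3' kit and Nextera XT, per the labels' protocols. The submitters' processing notes name STAR, HTSeq and the mm10 genome, without versions. The deposited values are on a log10 scale. From their structure they equal log10 of 1 plus reads per 100000 of the library total, centred per gene over 65 cells, with 2 further directions over cells taken out by the authors. Whole reads were recovered for all 10407 genes, and 100% of 356667 non-zero values came out within 0.01 of a whole number. The tables hold 94.0% to 99.3% of each library, and each gene has a read in at least 6 cells. The directions taken out hold 74.5% of the variance of genes detected, 24.2% of that of E12 membership and 15.5% of the transplanted minus E12 contrast.

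Reads were added per group and scaled to CPM, and 9931 genes with at least 5 CPM in either group were measured. The design had assumed deposited counts. Because the unit is a log10 residual and each group is 1 sample, no count test was run. Recovery and ratios were tested on simulated data, where reads of 99.9% of 3000 genes were recovered exactly. There 66% of genes raised 4-fold, 73.6% of genes lowered 4-fold and 5.4% of unchanged genes were called. The simulated spread between cells was assumed, so these shares are not error rates of the calls made here. Named genes were the 12 per direction with the largest ratio left without any single cell, among called genes with 20 CPM and a read in 30% of cells of the higher group, in the same direction in 70% of pools. List members called, and the 8 genes per direction with the largest deposited difference, were added after values were seen. Some genes, 1 of those 12 higher among them, are not reported here. The members and lists were chosen with earlier results of these data known. Alternatives covered scaling, thinning, filters, pseudocounts, pools and each cell left out. Gene positions are from GENCODE (GRCm38). Computation ran in Python 3.11.15 with SciPy 1.17.1, Numba 0.67.0 and pandas 2.3.3, on NumPy 2.4.6, and plots were drawn in Matplotlib 3.10.9.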

Additional observations from a re-analysis of the deposited data

How the results depend on the processing

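Medians (log2) and counts are transplanted over E12. Values on the deposited scale and before removal are log10 differences, so their size is not set against a log2 median. Counts on these 2 scales use a limit of 0.3, which is about 2-fold for high levels and more than 2-fold for low ones. The median of all genes was 0.80 within pools (log2, against -0.09 on summed CPM) and 0.071 before removal. Of 957 genes higher and 1219 lower, mean CPM per cell alone gave 2112 and 2239, thinning to 25000 reads 1604 and 2162, means within pools 4423 and 807, and the deposited log10 difference alone 160 and 198. A filter of 20 CPM gave 541 higher genes, leaving out libraries above 7000 genes 2071 lower, and log10 values before removal 155 lower. The apical progenitor median of -1.38 was -0.76 on mean CPM, -0.83 thinned, -0.55 without libraries above 7000 genes, -0.017 on the deposited scale and -0.18 before removal. The early temporal median of -1.13 was -0.75 without libraries above 7000 genes, -0.55 without pool E, -0.62 within pools, -0.067 on the deposited scale and -0.068 before removal. The late and gliogenic median of -0.82 was -0.059 on mean CPM, -0.045 thinned, 0.030, -0.36 and -0.54 without libraries above 8000, 7000 and 9000 genes, -1.30 and -0.48 without pools A and D, -0.30 within pools, 0.10 on the deposited scale and 0.0032 before removal. The neuron median of 1.49 was -0.017 on the deposited scale and 0.31 before removal. The cause was not tested. Leaving out single cells gave 898 to 1087 genes higher, 1134 to 1309 lower, and medians of -1.85 to -1.23 (apical progenitor), -1.48 to -0.85 (early temporal), -0.99 to -0.62 (late and gliogenic) and 1.0 to 2.41 (neuron).

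Other signs also turned, and those within pools and before removal include the shift of all genes: the values given here for those 2 settings lay below their all-gene medians, except Gria2 and Numb. On the deposited scale medians were -0.086 for ventral, -0.091 for microglia, 0.010 for cholesterol and 0.012 for adhesion genes, and before removal 0.028 for stress response genes, Dvl3 0.030 and Lrp6 0.0061. Within pools they were 0.093 for stress response, 0.035 for cholesterol and 0.16 for adhesion genes, with Dvl3 0.27, Egfl7 0.17, Gria2 0.93, Mki67 0.37, Nrp1 0.63, Numb 1.16 and Tle3 0.12. In IL numbers that hold both groups, globin genes had -1.94, Aurka -0.78, Ednrb 0.39, Fabp7 -0.91, Fgfr3 2.91, Hbb-bt -1.06, Hbb-y -1.43, Lrp6 0.50, Numb 2.58, Tle3 0.43 and Unc5d -1.16. Without pool A globin genes had -0.39, Dvl3 1.48 and Hbb-bt -1.50. Numb had 0.46 without pool F, Znrf3 -0.46 without pool G, Tle3 0.20 thinned, and Lhx6 -0.49 without libraries above 7000 genes. Leaving out single cells gave -0.52 to 2.71 for globin genes, -0.64 to 3.42 for Hbb-bt, -1.74 to 1.51 for Dvl3, -1.82 to 0.36 for Lrp6, -3.07 to 0.66 for Numb and -0.45 to 1.80 for Znrf3.

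The IL numbers, the library totals implied by the authors' scaling and the log10 values before removal were chosen after seeing the data. No paired analysis was possible because the labels give no replicate numbers that pair single cells, and those used here follow accession order. Groups were matched by pool and by IL number alone. Depth limits genes of few reads: 1 read is worth 0.202 CPM over the E12 cells, and a gene with no read there may reach 0.607 CPM. With genes at 0 in E12 set to that floor, no list with at least 9 measured genes changed its median. One sample per group leaves the spread between embryos unknown.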
